A study of Mus musculus with 6 samples.

Results

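The proteasome is the protease that breaks down ubiquitin-tagged proteins in the cytosol and nucleus. The 45 genes described here are those whose symbol in the platform annotation starts with Psma, Psmb, Psmc, Psmd, Psme or Psmg and a digit, without the immunoproteasome genes Psmb8, Psmb9 and Psmb10. Each is represented by its brightest probe set annotated to exactly 1 gene, out of 18194 genes represented that way. They comprised 16 core genes, 17 cap genes, 3 activator genes, 7 assembly chaperone genes and 2 genes that the symbol alone brought in, Psmc3ip and Psme3ip1, whose products are not proteasome subunits. The activator gene Psme2 was not among them, because its probe set is annotated to Psme2 and Psme2b together.

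Expression was measured in RAW264.7 cells, a single mouse macrophage-like cell line that can turn into osteoclast-like cells when given the cytokine RANKL, after 24 hours in low sodium (120 mmol/l, 3 arrays) or normal sodium (137 mmol/l, 3 arrays). Osmolality in low sodium was kept at 290 mOsm/l with mannitol. The labels list M-CSF (10 ng/ml) and RANKL (30 ng/ml) with the low-sodium medium and leave unclear whether the cells in normal sodium were given both, so every difference is between the media as labelled. The labels speak of 4 biological replicates per medium, of which 3 per medium were analysed here.

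The core particle is a barrel of stacked rings. Alpha subunits form the outer rings and gate the channel, and beta subunits form the inner rings and carry the proteolytic sites. The cap binds ubiquitinated proteins, removes the ubiquitin and threads the unfolded chain into the core with a ring of ATPases. Activators are alternative caps that open the gate without recognising ubiquitin, and dedicated chaperones assemble the core and the base of the cap. Osteoclast formation is known to need proteasome activity, since RANK signalling to NF-kB passes through degradation of its inhibitors.

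Promoters are shown for the catalytic genes Psmb6 and Psmb5, the 2 core genes whose window holds the response element described next, and for the assembly chaperone genes Psmg1 and Psmg3, the only members called in either fit below. Each window runs from 250 bases before to 50 bases after the RefSeq start of the gene (build GRCm38.p6), at chr11:70525107-70525406, forward strand for Psmb6, at chr14:54617946-54618245, reverse strand for Psmb5, at chr16:95990911-95991210, reverse strand for Psmg1 and at chr5:139826845-139827144, reverse strand for Psmg3. Capitals mark matches on either strand to TGACNNNGC, the core of the antioxidant response element bound by Nfe2l1 and Nfe2l2, or to CCGGAA, a core bound by ETS factors.
Psmb6: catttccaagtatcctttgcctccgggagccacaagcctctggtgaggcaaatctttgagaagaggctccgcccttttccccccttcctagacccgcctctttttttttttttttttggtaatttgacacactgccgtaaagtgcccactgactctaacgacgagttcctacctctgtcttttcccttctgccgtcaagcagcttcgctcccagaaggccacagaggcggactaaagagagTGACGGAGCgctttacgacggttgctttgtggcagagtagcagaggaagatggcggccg
Psmb5: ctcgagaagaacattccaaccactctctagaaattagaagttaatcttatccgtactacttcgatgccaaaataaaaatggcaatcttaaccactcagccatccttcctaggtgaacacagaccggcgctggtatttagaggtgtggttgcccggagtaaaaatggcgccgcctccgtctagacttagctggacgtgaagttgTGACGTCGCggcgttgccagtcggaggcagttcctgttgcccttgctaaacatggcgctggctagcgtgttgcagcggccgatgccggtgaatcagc
Psmg1: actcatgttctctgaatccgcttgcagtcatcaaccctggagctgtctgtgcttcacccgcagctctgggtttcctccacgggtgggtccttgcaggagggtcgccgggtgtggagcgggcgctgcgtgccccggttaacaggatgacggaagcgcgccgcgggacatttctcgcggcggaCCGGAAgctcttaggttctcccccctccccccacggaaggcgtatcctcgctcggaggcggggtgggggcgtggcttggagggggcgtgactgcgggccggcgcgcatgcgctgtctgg
Psmg3: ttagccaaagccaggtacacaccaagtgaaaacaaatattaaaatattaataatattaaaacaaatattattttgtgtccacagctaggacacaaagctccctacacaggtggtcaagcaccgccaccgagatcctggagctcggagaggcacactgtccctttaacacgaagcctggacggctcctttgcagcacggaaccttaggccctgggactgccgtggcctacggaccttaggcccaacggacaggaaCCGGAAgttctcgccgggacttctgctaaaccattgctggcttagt

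Of the 45 members 37 had a promoter in the RefSeq table, and the letters of 4 motifs were searched on both strands. TGACNNNGC occurred in 6 of the 37 (16.2%), against 16.1% of the 14368 tested genes with a promoter and 14.0% of all genes of the table. The 6 were Psmb5, Psmb6, Psmc6, Psmd9, Psmd12 and Psme4. In Psmb6 the match starts 9 bases before the start site and in Psmb5 47 bases before it. CCGGAA occurred in 21 of the 37 (56.8%), against 24.1% of the tested genes and 16.7% of the table, including Psmg1, where it starts 69 bases before the start site, and Psmg3, where it starts 5 bases into the transcript. CCAAT, bound by NF-Y, occurred in 15 (40.5%, against 42.0% and 41.1%) and CACGTG, the E-box that MYC binds, in 4 (10.8%, against 10.3% and 8.09%). The median GC content of the windows was 59.0% in members, 58.3% in tested genes and 52.7% in the table, and its part in the motif shares was not tested. A match is a description of letters, and no binding was measured. The median low-minus-normal difference was -0.04 in the 21 members with CCGGAA and -0.06 in the 16 without, and -0.01 in the 6 with TGACNNNGC and -0.04 in the 31 without. The members lay on 16 chromosomes, 9 of them on chromosome 11.

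All values are log2(intensity + 1) from the deposited linear intensities, which had the same trimmed mean on every array. With 3 arrays per medium, their number limits precision throughout. The replicate 3 arrays of both media stood apart: for the spiked-in control dap, signal at the 3′ end exceeded that at the 5′ end by 1.00, 1.05 and 2.94 in low-sodium replicates 1, 2 and 3, against 1.06, 0.96 and 3.07 in normal sodium. Differences are therefore also given within replicates 1 and 2 and within replicate 3, where 1 array per medium allows no test. Calls rest on limma with Benjamini-Hochberg adjustment over all 18194 genes at an adjusted p under 0.05, in a fit of low against normal sodium without a block and in a second fit with a term for replicate 3 and a trended prior, the batch-term fit. Earlier work on these data took up the second fit with its count of calls in view, so its calls carry less weight. All 10 macrophage markers checked had a mean signal above the median of all genes (7.12). All 5 fibroblast markers, all 3 measured T and B cell markers and 3 of 4 epithelial markers lay below that median. In the batch-term fit 2 macrophage markers (Adgre1 and Fcer1g) and 4 of 7 osteoclast markers (Ctsk, Mmp9, Dcstamp and Ocstamp) rose. No marker passed the fit without a block. The macrophage markers' summed signal ranged over 133 to 135 in low sodium and 131 to 134 in normal sodium, that of the osteoclast markers over 43.6 to 54.0 and 36.6 to 47.9, and their part in the proteasome values was not tested. Fewer cells of a type and less RNA per cell cannot be told apart on such arrays.

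The comparison asked how these cells respond to low extracellular sodium. No core, cap or activator gene passed either fit, and the transcripts of the ubiquitously used subunits differed between the media by little. Leaving out Psma8 and Psmb11, known for expression in testis and thymus, the 31 core and cap genes had low-over-normal ratios between 0.765 (Psmd3) and 1.29 (Psmb6). Among the 7 assembly chaperone genes, Psmg1 and Psmg3 fell in the batch-term fit, by 0.31 and 0.39 on the log2 scale.

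In the fit without a block, limma called 0 of the 45 members, and 0 had an unadjusted p under 0.05, while over all genes 0.0055% were called higher, 0% lower, and 8.15% had an unadjusted p under 0.05. In the batch-term fit 0 members were called higher (3.78% of all genes) and 2 were called lower (3.81% of all genes), which is 4.44% of the members and close to the background. Under a constant prior, 0 members and 0.011% of all genes passed the fit with the batch term. Most members gave strong signals, 31 of the 45 lying in the brightest 10% of genes, where the batch-term fit called 12.1% higher and 11.7% lower. The median low-minus-normal difference was -0.05 over the 45 members and -0.01 over all genes. Of the members 31 were below 0 (68.9%), against 50.8% of all genes and 53.6% of the brightest 10%. The low-sodium arrays lay wholly below the normal-sodium arrays in 6 members (13.3%, against 9.07% of all genes) and wholly above in 1 (2.22%, against 8.44%). In the brightest 10% of genes these shares were 15.3% wholly below and 14.1% wholly above. The 6 were Psma7, Psma8, Psmc3, Psmd3, Psmd7 and Psmg3, and the 1 was Psmd11. Of the 6, only Psma7 and Psmc3 lay in the brightest 10%. Whether the 13.3% was raised against genes of like signal is therefore not settled by these shares.

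**Figure D1:**
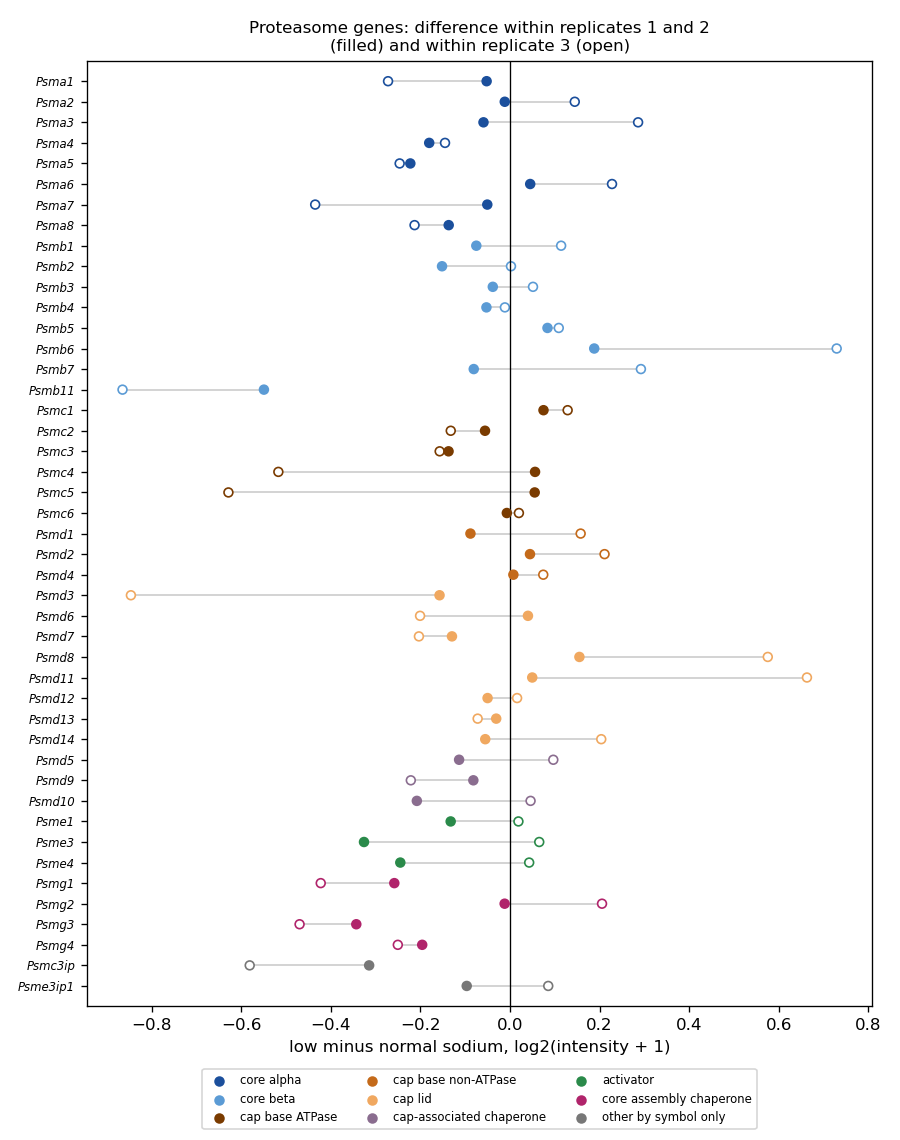
Low minus normal sodium on the log2(intensity + 1) scale for each of the 45 members, with filled circles for the mean difference in replicates 1 and 2 and open circles for the single difference in replicate 3, coloured by role. Filled circles lie between -0.55 (Psmb11) and 0.19 (Psmb6), whereas open circles spread from -0.87 (Psmb11) to 0.73 (Psmb6), and 20 members change sign between them.

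Among the members, 17 were lower in low sodium both within replicates 1 and 2 and within replicate 3, 8 were higher in both and 20 went opposite ways. Over all genes 5486 were lower in both, 5204 higher in both and 7504 opposite. The median of the members was -0.06 within replicates 1 and 2 and 0.02 within replicate 3. These medians depend on the scaling of the arrays: after median centring they were -0.18 and 0.25, where the medians of all genes were themselves -0.10 and 0.16, and after quantile normalisation they were -0.05 and -0.03. The share of core and cap genes below 0 moved likewise, being 22 of 33 within replicates 1 and 2 and 15 of 33 within replicate 3 as deposited, 31 and 7 after median centring, and 22 and 19 after quantile normalisation. A common direction of the core and cap genes within either set of replicates is therefore not given here.

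The 3 catalytic beta subunits cut after different residues. Psmb5, the chymotrypsin-like subunit and the target of the drug bortezomib, measured 13.04, 13.07 and 12.90 on the low-sodium arrays, against 13.00, 12.94 and 12.79 on the normal-sodium arrays. The media overlapped, and the difference was 0.09 ± 0.06 (SE of the batch-term fit, n = 3 against 3, adjusted p = 0.429 by limma), with a 95% interval of -0.04 to 0.23. Psmb7, the trypsin-like subunit, measured 13.57, 13.57 and 13.93 on the low-sodium arrays, against 13.66, 13.64 and 13.63 on the normal-sodium arrays. Low sodium was the lower in replicates 1 and 2 and the higher in replicate 3, and the difference was 0.04 ± 0.09 (adjusted p = 0.834 by limma). Psmb6, the caspase-like subunit, measured 12.65, 12.69 and 13.55 on the low-sodium arrays, against 12.51, 12.46 and 12.82 on the normal-sodium arrays. Within each replicate the low-sodium array was the higher, by a mean of 0.19 in replicates 1 and 2 and by 0.73 in replicate 3, yet the low-sodium arrays of replicates 1 and 2 lay below the normal-sodium array of replicate 3. Its difference of 0.37 ± 0.11 was the highest of any member and did not pass (adjusted p = 0.0960 in the batch-term fit and 0.819 without a block, by limma). Its size rests on replicate 3, since the difference was 0.19 when either replicate 3 array was left out and the other therefore no longer counted.

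The other constitutive beta subunits are structural, and Psmb1, Psmb2, Psmb3 and Psmb4 had differences from -0.10 (Psmb2) to -0.01 (Psmb3). Psmb2 measured 11.89, 12.06 and 12.45 on the low-sodium arrays, against 12.10, 12.15 and 12.45 on the normal-sodium arrays, with overlapping media and an interval of -0.27 to 0.07. Psmb11, the thymus-specific catalytic subunit, gave dim signals of 5.16, 2.56 and 2.42 on the low-sodium arrays, against 3.89, 4.93 and 3.28 on the normal-sodium arrays, and within single replicates low sodium was above normal sodium in replicate 1 and below it in replicates 2 and 3, so its mean difference of -0.65 carries an interval of -2.52 to 1.21.

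Alpha subunits showed 5 negative and 3 positive differences over all arrays, with a median of -0.14, and 0 of 8 passed either fit. Psma5 measured 13.10, 13.00 and 12.81 on the low-sodium arrays, against 13.29, 13.26 and 13.06 on the normal-sodium arrays. Low sodium was the lower in every replicate, with differences of -0.22 within replicates 1 and 2 and -0.25 within replicate 3, and the media overlapped only through normal-sodium replicate 3. The difference was -0.23 ± 0.06 (batch-term adjusted p = 0.0636 by limma, interval -0.37 to -0.09), and its other bright probe set differed by -0.29. Psma4 measured 12.69, 12.72 and 13.14 on the low-sodium arrays, against 12.89, 12.88 and 13.29 on the normal-sodium arrays. It too was lower in low sodium in every replicate as deposited, and its difference of -0.17 ± 0.06 did not pass (adjusted p = 0.135 by limma). Its sign in replicate 3 (-0.15) depends on the scaling, since median centring moved the median of all genes there from -0.06 to 0.16. Psma7 measured 12.31, 12.28 and 12.13 on the low-sodium arrays, against 12.38, 12.31 and 12.56 on the normal-sodium arrays. The media did not overlap, although low-sodium replicate 1 and normal-sodium replicate 2 were equal to the decimals shown, the difference was -0.18 ± 0.09 (adjusted p = 0.309 by limma), and the second Psma7 probe set differed by -0.21. The Psma7 difference was -0.05 within replicates 1 and 2, and so also when either replicate 3 array was left out, against -0.43 within replicate 3. Psma1, Psma2, Psma3 and Psma6 lay between -0.13 (Psma1) and 0.11 (Psma6). Psma8, the testis form of the subunit encoded by Psma7, had a difference of -0.16 and media that did not overlap as deposited. As for Psma4, its sign in replicate 3 (-0.21) depends on the scaling.

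**Figure D2:**
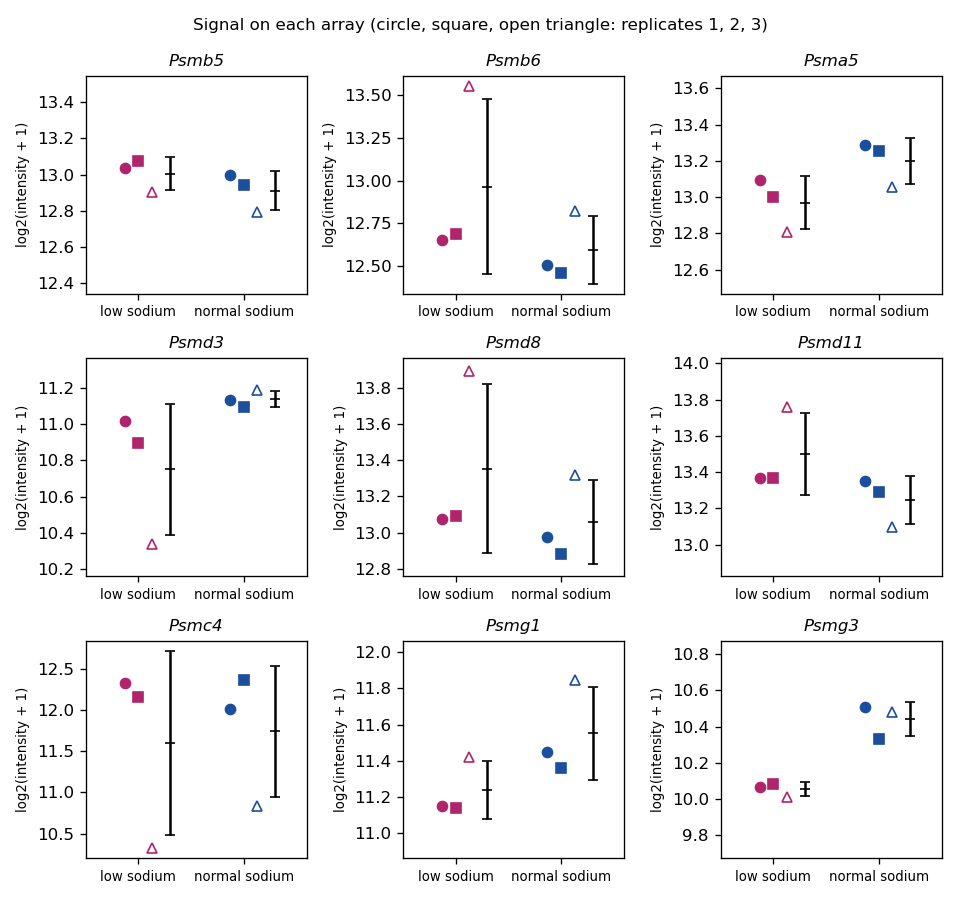
Signal on each array, log2(intensity + 1), for 9 members, with low sodium left of normal sodium in each panel; circles, squares and open triangles are replicates 1, 2 and 3, and the bars beside them show the mean and SD of 3 arrays. The open triangles of Psmb6 and Psmd8 stand above the other arrays in both media and those of Psmc4 below them, while the 3 Psmg3 points of low sodium lie below all 3 of normal sodium.

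The base of the cap holds the ATPase ring and its scaffolds. Of the 6 ATPase genes 4 had negative and 2 positive differences, all between -0.17 (Psmc5) and 0.09 (Psmc1), and 0 passed either fit. Psmc3 measured 12.18, 12.13 and 12.26 on the low-sodium arrays, against 12.31, 12.27 and 12.42 on the normal-sodium arrays. It was the 1 ATPase gene whose media did not overlap as deposited, and its difference of -0.14 ± 0.06 did not pass (adjusted p = 0.218 by limma). As for Psma4, its sign in replicate 3 (-0.16) depends on the scaling. Psmc5 measured 11.62, 11.69 and 11.38 on the low-sodium arrays, against 11.62, 11.58 and 12.01 on the normal-sodium arrays. Its media overlapped, and the difference was 0.06 within replicates 1 and 2 but -0.63 within replicate 3. Psmc1 was higher in low sodium by 0.07 and 0.13 in these 2 sets of arrays, and did not pass (adjusted p = 0.476 by limma). Of the non-ATPase genes of the base, the scaffold genes Psmd1 and Psmd2 differed by -0.01 ± 0.08 and 0.10 ± 0.07. Psmd4, a ubiquitin receptor, measured 12.35, 12.52 and 12.83 on the low-sodium arrays, against 12.43, 12.42 and 12.75 on the normal-sodium arrays, with overlapping media and a difference of 0.03 ± 0.07 (interval -0.13 to 0.19).

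The lid removes ubiquitin, and its 8 genes spanned the widest range within the cap, from -0.39 (Psmd3) to 0.30 (Psmd8), with 0 passing either fit. Psmd14, the deubiquitinase of the lid, measured 13.02, 13.06 and 13.38 on the low-sodium arrays, against 13.13, 13.07 and 13.17 on the normal-sodium arrays. Its media overlapped, and the difference was 0.03 ± 0.07 (adjusted p = 0.866 by limma, interval -0.14 to 0.20). Psmd3 measured 11.02, 10.90 and 10.34 on the low-sodium arrays, against 11.13, 11.10 and 11.19 on the normal-sodium arrays. The media did not overlap, but the low-sodium array of replicate 3 stood apart, and the difference was -0.16 within replicates 1 and 2 and -0.85 within replicate 3 (-0.39 ± 0.14 over all arrays, adjusted p = 0.157 by limma). Psmd8, the last subunit to join the lid in yeast, measured 13.08, 13.09 and 13.89 on the low-sodium arrays, against 12.98, 12.88 and 13.32 on the normal-sodium arrays. Low sodium was the higher in every replicate, by 0.16 and 0.58 in the 2 sets, and the media overlapped (adjusted p = 0.114 by limma). Psmd11, a scaffold of the lid that touches the core, measured 13.37, 13.37 and 13.76 on the low-sodium arrays, against 13.35, 13.29 and 13.10 on the normal-sodium arrays. It was the 1 member with all low-sodium arrays above all normal-sodium arrays, though only narrowly (13.370 against 13.353). The mean difference was 0.05 within replicates 1 and 2 and 0.66 within replicate 3. The sign of the former depends on the scaling, since median centring moved the median of all genes there from 0.02 to -0.10. The Psmd11 difference of 0.25 ± 0.12 over all arrays did not pass (adjusted p = 0.281 by limma). Its 3 other probe sets with a mean signal above 10 differed by 0.19, 0.29 and 0.22, each by most in replicate 3. Psmd7, the inactive partner of Psmd14, differed by -0.15 with media that did not overlap as deposited. As for Psma4, its sign in replicate 3 (-0.20) depends on the scaling. Psmd6, Psmd12 and Psmd13 lay between -0.04 and -0.03.

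The medians of core and cap genes lay close together. The median difference was -0.03 in the 16 core genes and -0.03 in the 17 cap genes, and 0 of either passed. Within replicates 1 and 2 the medians were -0.06 (core) and -0.01 (cap), and within replicate 3 they were 0.03 and 0.02. Without Psma8 and Psmb11 the core median was -0.01 over all arrays, -0.05 within replicates 1 and 2 and 0.08 within replicate 3. For the 16 core genes, leaving out each array in turn with the batch term gave medians from -0.06 to -0.01. For the cap genes it gave -0.02 to -0.01, an alternative chosen after seeing the data. Without that term, leaving out 1 array makes the media uneven in replicate 3, and the core median was then 0.04 without low-sodium replicate 1, 0.03 without low-sodium replicate 2 and 0.03 without normal-sodium replicate 3. Without Psma8 and Psmb11, the batch-term 95% interval of the difference lay within a 1.5-fold change either way for 29 of 31 core and cap genes, the exceptions being Psmb6 (0.11 to 0.63) and Psmd3 (-0.71 to -0.06). In the fit without a block, where the shift of replicate 3 enters the error, this held for 18 of 31, and an interval within 2-fold held for 28 of 31. These intervals are per gene and not adjusted for the number of genes.

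**Figure D3:**
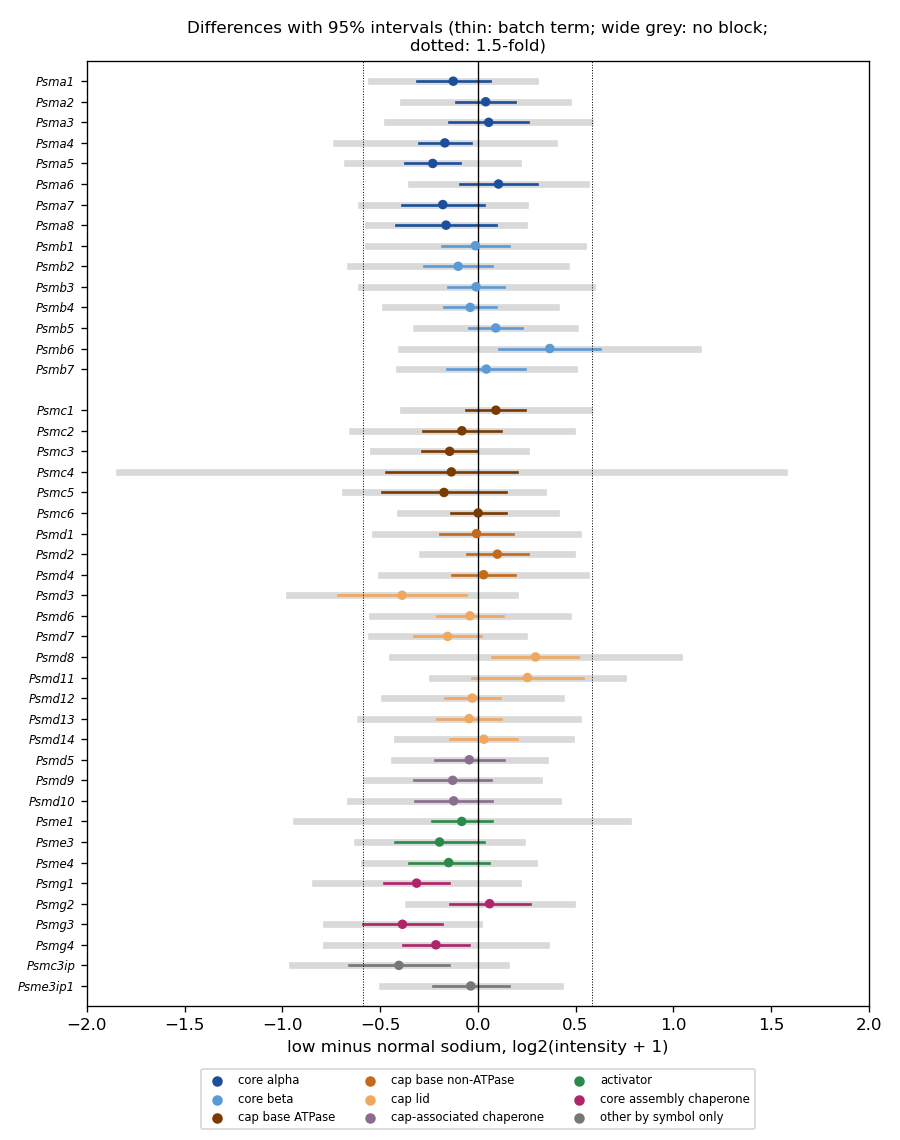
Low minus normal sodium for 44 members (Psmb11, whose interval is wider than the axis, is left out), log2(intensity + 1), with the 95% interval of the batch-term fit as a thin line and that without a block as a wide grey bar; dotted lines mark 1.5-fold. The thin lines of Psmg1 (-0.48 to -0.15) and Psmg3 (-0.59 to -0.18) lie wholly below 0, as do those of some genes that did not pass after adjustment over all genes, such as Psma5 and Psmg4, and the grey bar of Psmc4 is the widest drawn.

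Activators replace the cap. Psme1, which forms an interferon-inducible ring with the product of Psme2, measured 11.89, 11.95 and 12.77 on the low-sodium arrays, against 12.05, 12.06 and 12.75 on the normal-sodium arrays. Its media overlapped and the difference was -0.08 ± 0.07 (adjusted p = 0.540 by limma). Psme3, a nuclear activator, measured 10.78, 10.74 and 10.90 on the low-sodium arrays, against 11.12, 11.06 and 10.84 on the normal-sodium arrays. Low sodium was the lower in replicates 1 and 2 (-0.33) and the higher in replicate 3 (0.07), and over all arrays the difference was -0.20 ± 0.10 (adjusted p = 0.303 by limma). The other bright Psme3 probe set measured 10.73, 10.79 and 10.24 on the low-sodium arrays, against 10.93, 10.84 and 10.47 on the normal-sodium arrays. There low sodium was the lower in every replicate, with a difference of -0.16 over all arrays. Psme4, a large single-chain activator known for a role with acetylated histones, measured 10.83, 10.95 and 10.87 on the low-sodium arrays, against 11.15, 11.12 and 10.83 on the normal-sodium arrays. It had the pattern of the Psme3 probe set kept, with -0.24 within replicates 1 and 2 and 0.04 within replicate 3. Over all arrays the Psme4 difference was -0.15, while its other probe sets with a mean signal above 10 differed by only -0.02 and -0.10. The median of the 3 activator genes was -0.15 over all arrays, -0.24 within replicates 1 and 2 and 0.04 within replicate 3, and 0 of 3 passed either fit. The probe set shared by Psme2 and Psme2b measured 12.00, 11.96 and 12.37 on the low-sodium arrays, against 11.91, 11.90 and 12.35 on the normal-sodium arrays, and the 2 genes cannot be told apart there.

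The 4 core assembly chaperones act in pairs, Psmg1 with Psmg2 and Psmg3 with Psmg4, to build the alpha ring. Psmg3 measured 10.07, 10.08 and 10.01 on the low-sodium arrays, against 10.51, 10.33 and 10.48 on the normal-sodium arrays. All 3 low-sodium arrays lay below all normal-sodium arrays, with differences of -0.34 within replicates 1 and 2 and -0.47 within replicate 3. Psmg3 fell by 0.39 ± 0.09 in the batch-term fit (SE, n = 3 against 3, adjusted p = 0.0407 by limma), while its adjusted p without a block was 0.615. Psmg1 measured 11.15, 11.14 and 11.42 on the low-sodium arrays, against 11.45, 11.36 and 11.84 on the normal-sodium arrays. Low sodium was the lower in every replicate, with differences of -0.26 within replicates 1 and 2 and -0.42 within replicate 3, although low-sodium replicate 3 lay between normal-sodium replicates 2 and 1. Psmg1 fell by 0.31 ± 0.07 in the batch-term fit (adjusted p = 0.0422 by limma), and its adjusted p without a block was 0.765. Psmg4 measured 10.60, 10.64 and 11.01 on the low-sodium arrays, against 10.76, 10.87 and 11.26 on the normal-sodium arrays. It too was lower in low sodium in every replicate, and its difference of -0.21 ± 0.07 did not pass (adjusted p = 0.137 by limma). Psmg2 measured 11.36, 11.52 and 11.64 on the low-sodium arrays, against 11.53, 11.37 and 11.43 on the normal-sodium arrays, with overlapping media and a difference of 0.06 ± 0.09. Within replicates 1 and 2 the Psmg2 difference was -0.01 and within replicate 3 it was 0.21, so the positive sign comes from replicate 3.

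Both calls are close to the threshold and end under several settings. Neither held with a constant prior (adjusted p = 0.274 for Psmg1 and 0.239 for Psmg3 by limma) or when any 1 of the 4 arrays of replicates 1 and 2 was left out, each time with 0 members called. Over all genes those runs called 2 with the constant prior and 373 to 463 with an array left out, against 1382 in the full fit. Leaving out either replicate 3 array gave 7 calls, since the batch term then takes up the remaining one. Over all genes there were then 2681 calls without the low-sodium array and 2663 without the normal-sodium array. The 1 other probe set of Psmg3, which is dim, differed by 0.48, so that the mean of its probe sets differed by 0.05.

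The chaperones of the cap base had smaller differences. Psmd10, also known as gankyrin, measured 10.47, 10.56 and 11.00 on the low-sodium arrays, against 10.72, 10.73 and 10.96 on the normal-sodium arrays, and Psmd5 and Psmd9 differed by -0.04 and -0.13. The difference of Psmd10 was -0.12 ± 0.08, with media that overlapped, and 0 of these 3 genes passed either fit. Over all 7 assembly chaperones 6 differences were below 0 (85.7%, against 50.8% of all genes), and the median was -0.13. As deposited it was -0.20 within replicates 1 and 2 and -0.22 within replicate 3. These 2 medians depend on the scaling too. Median centring moved the median of all genes from 0.02 to -0.10 within replicates 1 and 2, and from -0.06 to 0.16 within replicate 3. A common direction of the assembly genes across both sets is therefore not given here either. Psmc3ip, a partner in meiotic recombination taken in by its symbol, differed by -0.40 ± 0.11 (adjusted p = 0.0735 by limma), and Psme3ip1, whose product binds the Psme3 activator, by -0.04 ± 0.08.

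On the arrays of replicates 1 and 2 only, limma with a trended prior called 7 members, of which Psmb6 was higher (7.27% of all genes were) and Psma4, Psma5, Psme3, Psme4, Psmg1 and Psmg3 were lower (7.6% of all genes were). These calls rest on 2 arrays per medium. In replicate 3 the sign on the probe sets kept was the same for Psmb6, Psma4, Psma5, Psmg1 and Psmg3 and the opposite for Psme3 and Psme4. For Psme3 the other bright probe set was lower in replicate 3 too.

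The shift between replicate 3 and the other replicates was larger than the difference between the media in 31 of the 45 members. Its median size was 0.23 over the members and their median difference between media 0.11, against 0.45 and 0.29 over all genes. Psmc4, an ATPase of the cap named here for this shift after its values were seen, measured 12.33, 12.16 and 10.32 on the low-sodium arrays, against 12.01, 12.36 and 10.84 on the normal-sodium arrays. Both media were far lower in replicate 3, with a mean shift of -1.64, and the difference between media was -0.14 ± 0.14. The second Psmc4 probe set measured 11.81, 11.85 and 11.11 on the low-sodium arrays, against 11.73, 11.70 and 11.61 on the normal-sodium arrays, with smaller shifts in replicate 3. Psme1, Psmb6 and Psmd8 moved the other way, by 0.77, 0.61 and 0.60. In both media 23 members were higher in replicate 3 and 11 lower. The part of the culture, the labelling and the array in these shifts was not tested.

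**Figure D4:**
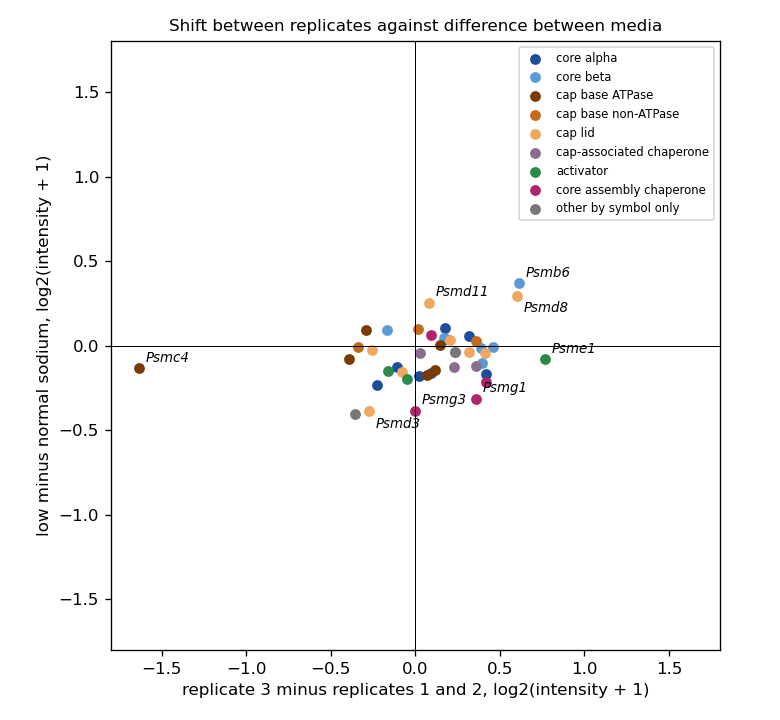
Mean shift of replicate 3 from replicates 1 and 2 (x) against the difference of low minus normal sodium (y), both log2(intensity + 1) and drawn to the same scale, for 44 members coloured by role (Psmb11 left out). Points spread further along x, from -1.64 (Psmc4) to 0.77 (Psme1), than along y, from -0.40 (Psmc3ip) to 0.37 (Psmb6).

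Other probe sets gave a check on the choice of 1 per gene. Members had 50 further probe sets, and of the 32 with a mean signal above the median of all probe sets, 25 differed in the same direction as the one kept and 7 in the opposite direction.

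Genes around the proteasome were taken from lists of its regulators and partners. The immunoproteasome genes Psmb8, Psmb9 and Psmb10, which replace the catalytic subunits under interferon, gave 0 calls in 3 genes, with differences of -0.09 ± 0.07, 0.13 ± 0.10 and -0.24 ± 0.07. Of 6 measured assembly factors and inhibitors outside the rule 0 passed either fit. Pomp, the maturation factor of the core, measured 12.74, 12.68 and 12.66 on the low-sodium arrays, against 12.61, 12.73 and 12.76 on the normal-sodium arrays, which differed by -0.01 with overlapping media, and Psmf1, an inhibitor of the core, differed by -0.04.

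Of 9 measured regulators of subunit transcription 1 rose, 0 fell and 8 did not pass the batch-term fit. Nfe2l2, the factor of the antioxidant response, measured 12.86, 12.82 and 12.55 on the low-sodium arrays, against 12.49, 12.51 and 12.21 on the normal-sodium arrays. All 3 low-sodium arrays lay above all normal-sodium arrays, by 0.34 within replicates 1 and 2 and 0.33 within replicate 3, and Nfe2l2 rose by 0.34 ± 0.06 (adjusted p = 0.0155 in the batch-term fit and 0.714 without a block, by limma). Nfe2l1, which raises subunit transcription when the proteasome is inhibited, measured 11.18, 11.27 and 11.61 on the low-sodium arrays, against 11.17, 10.87 and 10.65 on the normal-sodium arrays. Its media did not overlap either, though only narrowly, and the difference of 0.46 ± 0.16 did not pass (adjusted p = 0.150 by limma). It was 0.20 within replicates 1 and 2, and so also when either replicate 3 array was left out, against 0.97 within replicate 3. The 6 members with TGACNNNGC in the promoter window had differences between -0.15 (Psme4) and 0.37 (Psmb6) beside these values, and 0 of the 6 passed.

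Of 10 measured proteasome-bound ubiquitin enzymes and shuttles 1 rose, 1 fell and 8 did not pass the batch-term fit. Zfand2a, an arsenite-inducible protein that binds the proteasome, measured 10.82, 10.79 and 10.89 on the low-sodium arrays, against 10.07, 10.00 and 9.71 on the normal-sodium arrays. The media did not overlap, and Zfand2a rose by 0.91 ± 0.10 (adjusted p = 0.00424 in the batch-term fit and 0.380 without a block, by limma). Uchl5, a deubiquitinase of the cap, measured 12.01, 11.99 and 11.83 on the low-sodium arrays, against 12.32, 12.26 and 12.08 on the normal-sodium arrays. Low sodium lay below normal sodium on all arrays, and Uchl5 fell by 0.28 ± 0.06 (adjusted p = 0.0380 in the batch-term fit and 0.736 without a block, by limma). Usp14, the other cap-bound deubiquitinase that trims ubiquitin chains, differed by 0.03. Of the ubiquitin genes and activating enzymes only Uba6 was analysed here, and it differed by 0.26 ± 0.09 without passing. None of these list genes passed the fit without a block. Zfand2a passed the batch-term fit in 16 of 17 alternatives, with differences from 0.77 to 0.99, and was lost with a constant prior (adjusted p = 0.140 by limma). Nfe2l2 passed in 10 of 17, and was lost with a constant prior, median centring, the replicate block and each array of replicates 1 and 2 left out (adjusted p up to 0.234 by limma). Uchl5 passed in 8 of 17. It was lost under the same settings as Nfe2l2, with every probe set tested on its own, and with the mean of its probe sets, where the difference was -0.064 (adjusted p = 0.785 by limma).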

How the data were processed

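Biotin-labelled RNA of 6 cultures was hybridised to Affymetrix mouse arrays, per the labels' protocols. The authors deposited linear intensities for every probe set on each array. The submitters' processing notes name Partek, with no version, and how probes were summarised is not stated there. The mean between percentiles 2 and 98 came to 500.003 on each of the arrays, and the median to 47.8 to 74.5. Of 45037 probe sets other than 64 controls, 34945 carried 1 gene in the platform annotation, 932 several and 9160 none. Symbols were updated through the RefSeq table of GRCm38.p6.

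Fits used limma 3.58.1 in R 4.3.3 on log2(intensity + 1) of 18194 genes, two-sided, with the arrays and terms given above. SEs printed after ± are those of the batch-term fit. Scripts were tested on simulated data. Members, roles and lists were chosen with earlier results of these data known. Named genes were members or list genes that passed a fit, the 3 members of each role with the smallest batch-term p, and a fixed set of catalytic, cap, activator and regulator genes; other genes were named to complete a role or list, or after their values were seen. Alternatives covered the added value, scaling, filters, representation of a gene, array weights, priors, blocks and each array left out.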

Additional observations from a re-analysis of the deposited data

How the results depend on the processing

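Without a block, 0 members were called under every alternative run, among them the replicate block, a trended prior and each array left out. The batch-term fit called 2 members, and 0 with median centring, with the mean of all probe sets, with every probe set tested on its own, with the replicate block and with a constant prior. It called 4 with the dimmest 50% of genes left out, 5 with array weights and 7 in replicates 1 and 2 only. When 1 array was left out it called 0 to 7. With the dimmest 50% of genes left out the fit called 1876 of the genes that remained. Over all genes the fit called 1382, against 2376 with array weights and 2705 in replicates 1 and 2 only. With 1 array left out that count ranged from 373 to 2681. It was 659 with median centring, 822 with the mean of all probe sets, 544 with the replicate block and 2 with a constant prior. The labels share replicate numbers without naming a pairing, and deviations of same-numbered arrays from their group means correlated across genes at 0.101, 0.0794 and 0.237. Low-sodium replicate 2 correlated best with normal-sodium replicate 1, so the block counts only as an alternative. With the mean of all probe sets the differences of Psmg3 (0.046), Psme3 (0.29), Psmf1 (0.48), Psmd2 (-0.091) and Psmd4 (-0.052) had the opposite sign. In the batch-term fit the difference of Psmc5 was 0.055 in replicates 1 and 2 only, and -0.26 to 0.055 over arrays left out. In plain group means, which become uneven in replicate 3, the core median ranged from -0.12 to 0.042 over arrays left out, the cap median from -0.050 to 0.0050, the activator median from -0.25 to -0.12 and the assembly median from -0.29 to -0.065. With the batch term, an alternative chosen after seeing the data, all 4 medians were below 0 with each array left out. After median centring the median of all members was -0.18 within replicates 1 and 2 and 0.25 within replicate 3. The causes were not tested.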
